A study of Homo sapiens with 12 samples.

Results

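The genes described here are 8 chemokines, taken by Ensembl gene identifier: CXCL1 (ENSG00000163739.5), CXCL2 (ENSG00000081041.9), CXCL3 (ENSG00000163734.4), CXCL5 (ENSG00000163735.7), CXCL6 (ENSG00000124875.10), CXCL8 (ENSG00000169429.11), CCL2 (ENSG00000108691.9) and CCL20 (ENSG00000115009.13). They were chosen with earlier results of these data known, and are 8 of the 60708 features in the deposited tables. All were looked up in 12 libraries of RNA immunoprecipitation followed by sequencing of HK2 cells, an established line of human kidney epithelium. Every cell population had been transfected with a plasmid (10 µg) for human Arid5a carrying a FLAG tag, so the cells behind the control precipitates carried the plasmid too. The 4 groups of 3 libraries were FLAG antibody after 3 h of IL-17 at 200 ng/mL (FLAG IL-17), FLAG antibody after medium (FLAG medium), mouse IgG1 after IL-17 (IgG IL-17) and mouse IgG1 after medium (IgG medium). Arid5a was expressed from a plasmid, and libraries of input RNA or of cells without the plasmid were not analysed here. The RNA described is therefore what each antibody recovered, not the content of the cells. The kidney epithelial label was not checked against marker genes, because no table used here pairs the files' identifiers with names.

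IL-17 signals through its receptor and the adaptor Act1 to the transcription factor NF-kappaB, and it also lengthens the life of otherwise short-lived inflammatory mRNAs. Chemokine mRNAs are textbook examples of both steps, since they are switched on by NF-kappaB and carry AU-rich elements that direct their decay. Arid5a is an RNA-binding protein known to stabilise inflammatory mRNAs such as that of IL-6. In tubular epithelium, the chemokines of the CXC family with an ELR motif call in neutrophils, CCL2 calls in monocytes, and CCL20 calls in cells that carry CCR6, among them IL-17-producing T cells.

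All 6 CXC genes lie on chromosome 4 (GRCh38.p14, from RefSeq) within chr4:73740569-74099195, a stretch of 359 kb that holds 9 protein-coding genes. CCL2 lies at chr17:34255285-34257203 and CCL20 at chr2:227813842-227817556. RefSeq promoter sequences were found for 7 of the 8 genes, all but CCL2. The 150 bases before each annotated start are shown because the CXC genes share a sequence there while their RNA differed widely in amount. They are written 5′ to 3′ on the gene's strand, and capitals mark the kappaB-like motif GGAATTTCC.
CXCL1, chr4:73869243-73869392, plus strand: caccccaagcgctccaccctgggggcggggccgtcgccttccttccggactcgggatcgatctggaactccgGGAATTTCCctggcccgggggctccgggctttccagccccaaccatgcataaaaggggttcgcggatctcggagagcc
CXCL2, chr4:74099196-74099345, minus strand: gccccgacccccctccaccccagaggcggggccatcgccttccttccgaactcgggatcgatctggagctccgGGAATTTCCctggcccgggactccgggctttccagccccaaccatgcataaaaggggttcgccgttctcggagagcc
CXCL3, chr4:74038690-74038839, minus strand: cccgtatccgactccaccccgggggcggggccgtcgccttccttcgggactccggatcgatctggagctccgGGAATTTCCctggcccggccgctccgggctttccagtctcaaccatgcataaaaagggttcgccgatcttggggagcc
CXCL5, chr4:73998678-73998827, minus strand: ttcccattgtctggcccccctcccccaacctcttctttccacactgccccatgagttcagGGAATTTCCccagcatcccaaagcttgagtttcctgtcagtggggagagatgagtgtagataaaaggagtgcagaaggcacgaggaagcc
CXCL6, chr4:73836528-73836677, plus strand: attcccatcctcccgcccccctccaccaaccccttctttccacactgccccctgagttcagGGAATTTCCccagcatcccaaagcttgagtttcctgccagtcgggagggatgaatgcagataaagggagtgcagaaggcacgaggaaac
CXCL8, chr4:73740419-73740568, plus strand: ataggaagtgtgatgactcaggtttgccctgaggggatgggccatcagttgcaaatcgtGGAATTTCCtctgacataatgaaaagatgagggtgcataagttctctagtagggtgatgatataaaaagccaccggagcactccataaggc
CCL20, chr2:227813692-227813841, plus strand: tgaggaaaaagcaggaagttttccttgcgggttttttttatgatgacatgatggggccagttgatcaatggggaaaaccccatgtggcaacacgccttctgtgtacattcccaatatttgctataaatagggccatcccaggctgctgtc
The motif GGAATTTCC, searched on both strands, was present in 6 of these 7 windows and in 0.253% of 35116 promoter windows of the same length. Several of the 6 windows closely resemble each other, as given below, so these matches are not independent draws. It began 78 bases before the start in CXCL1 and CXCL3, 77 in CXCL2, 90 in CXCL5, 89 in CXCL6 and 91 in CXCL8. CCL20 did not have these exact letters in this window, and other forms of a kappaB site were not searched. The AP-1 motif TGACTCA was found in CXCL8 alone among the 7, from 137 bases before the start, and in 2.89% of all promoter windows. The TATA-like motif ATAAAA began 30 bases before the start in CXCL1, CXCL2, CXCL3 and CXCL8 and 31 in CXCL5. CCL20 had it on the other strand, 115 to 110 bases before the start, CXCL6 had no match, and 8.61% of all windows held it. Only these exact letters were searched, so other forms of a TATA element, such as tataaata in the CCL20 window, were not counted. No searched motif overlapped another in these windows. Aligned over these bases, CXCL1 and CXCL2 were 88.7% identical, CXCL1 and CXCL3 88.1%, CXCL2 and CXCL3 86.1%, and CXCL5 and CXCL6 89.4%, whereas CXCL8 and CXCL1 were 45.1% identical.

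**Figure D1:**
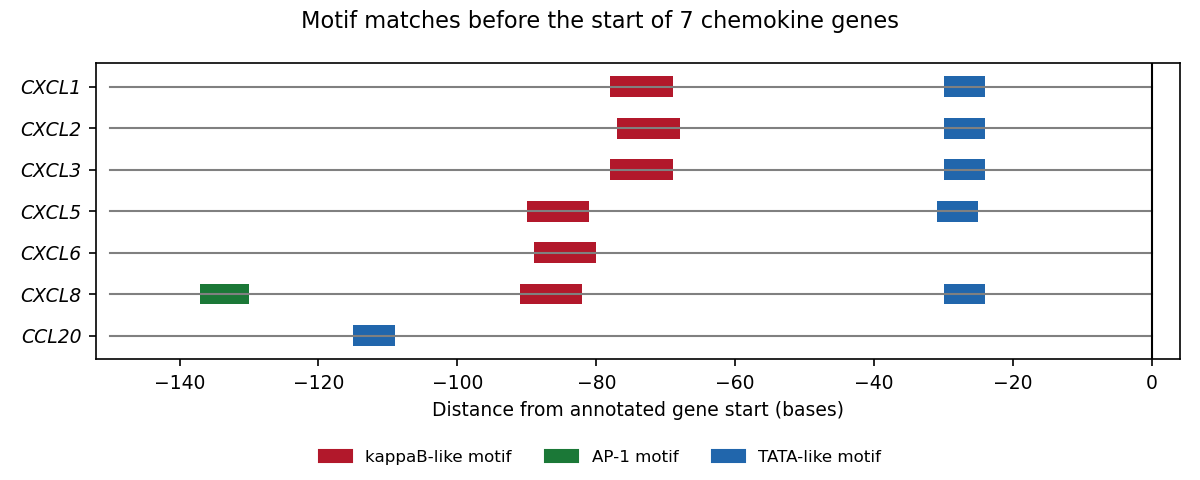
Positions of 3 motifs in the 150 bases before the annotated start of 7 chemokine genes, with distance from the start in bases on the x axis and 1 gene per line. The exact letters GGAATTTCC lie between 91 and 69 bases before the start in all 6 CXC genes and are not in the CCL20 window. Other forms of a kappaB site were not searched.

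Library totals ran from 746911 to 17723100 estimated counts. The 6 IL-17 libraries had 5365500 to 17723100 and the 6 medium libraries 746911 to 7563480, so depth moved with treatment, and its part in the differences below was not tested. IgG medium replicate 1, the shallowest, could miss RNA at up to 4.02 CPM (estimated counts scaled to the library total) with a count of 0. In the deepest library this limit was 0.169 CPM, and it covers counting error only. IgG IL-17 replicate 1, IgG medium replicate 2 and FLAG medium replicate 1 also stood apart, with 8.93%, 16.2% and 11.9% of their counts on the single feature ENSG00000196843.17. The remaining libraries had 0.416% to 2.48% on this feature, which no table used here names. A large share on 1 feature was not limited to these libraries, since another feature took 12.4% in IgG IL-17 replicate 3. Where a fit without the 4 libraries that stood apart changed a call, only the log2 fold change is given. That fit left IgG medium replicate 3 alone.

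CXCL8, the main neutrophil attractant among these genes, was the most abundant in all 12 libraries. It held 83.2% of the counts assigned to the 8 chemokines, followed by CXCL2 with 11.9%, CXCL3 with 1.81%, CCL2 with 1.67% and CCL20 with 1.06%. Per length, the median over 12 libraries was 20.5 TPM (a length-adjusted share of transcripts) for CXCL8, 3.205 for CXCL2, 0.395 for CCL2, 0.34 for CXCL3 and 0.24 for CCL20. In TPM, CXCL8 exceeded CXCL2 in 12 of 12 libraries, and CXCL2 exceeded CXCL3 and CCL20 in 12 of 12. CXCL2 exceeded CCL2 in 10 of 12, the exceptions being FLAG medium replicates 1 and 3. CXCL3, CCL2 and CCL20 had no fixed order among themselves: CXCL3 was above CCL2 in 6 of 12 libraries, CXCL3 above CCL20 in 4 and CCL2 above CCL20 in 3. By estimated count, CXCL8 lay above 92.8% to 98.3% of the features detected in a library, and CXCL2 above 19.3% to 84.5%.

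CXCL1, CXCL5 and CXCL6, further neutrophil attractants, did not pass the filter on low counts and had 0 counts in most libraries. CXCL1 had 1, 1 and 0 counts in FLAG IL-17, 2, 0 and 0 in IgG IL-17, and 0 in all 6 medium libraries. Over the summed totals, these zeros leave room for 0.184 CPM in FLAG medium and 0.281 CPM in IgG medium. CXCL1 thus had 4 counts in the whole study, against 2426 for CXCL2 and 368 for CXCL3, the paralogs whose promoter windows are shown above. CXCL5 had 8, 0 and 0 counts in FLAG IL-17, against 6, 0 and 0 in FLAG medium. In IgG IL-17 it had 12.4, 0 and 10, and in IgG medium 0 in all 3 libraries. CXCL6 had 2, 0 and 0 in FLAG IL-17, 0 in each FLAG medium library, 14, 23 and 0 in IgG IL-17 and 0, 2 and 0 in IgG medium. The counts of CXCL5 and CXCL6 came from 4 libraries each, and IgG IL-17 replicate 1 was among them for both.

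Similar paralogs can share reads, which estimated counts then divide. Of the 64 values above 0 for the 8 genes, 1 was not exactly whole, with no tolerance allowed (CXCL5 in IgG IL-17 replicate 1), compared with 18% of such values over all features. Summing CXCL1, CXCL2 and CXCL3 gave 35.7, 28.6 and 29.6 CPM of the library total in FLAG IL-17, against 2.08, 12.6 and 7.44 in FLAG medium. The same sum was 21.8, 30.2 and 29.1 CPM in IgG IL-17 and 14.7, 12.6 and 33.4 in IgG medium. The sum was thus higher in every FLAG IL-17 library than in any FLAG medium library, as CXCL2 was on its own.

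Fold changes were tested for the 5 genes that passed the filter, CXCL2, CXCL3, CXCL8, CCL2 and CCL20, with edgeR's quasi-likelihood test over 24040 features. CCL20 passed only with its FLAG IL-17 libraries counted, so higher CCL20 in that group is not independent of the filter. A call needed a Benjamini-Hochberg adjusted p under 0.05. Levels in these comparisons are CPM scaled by TMM, a correction for library composition, and are called scaled CPM. DESeq2 gave no adjusted p for CCL20 in 3 comparisons (FLAG over IgG in medium, and IL-17 over medium in FLAG and in IgG), so its calls there are out of 4 genes. In libraries of precipitated RNA, fewer cells with an RNA and less of it per cell cannot be told apart. The labels do not state whether replicates were separate cultures. The p-values thus reflect the spread of these 12 libraries alone, and that spread may be technical.

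**Figure D2:**
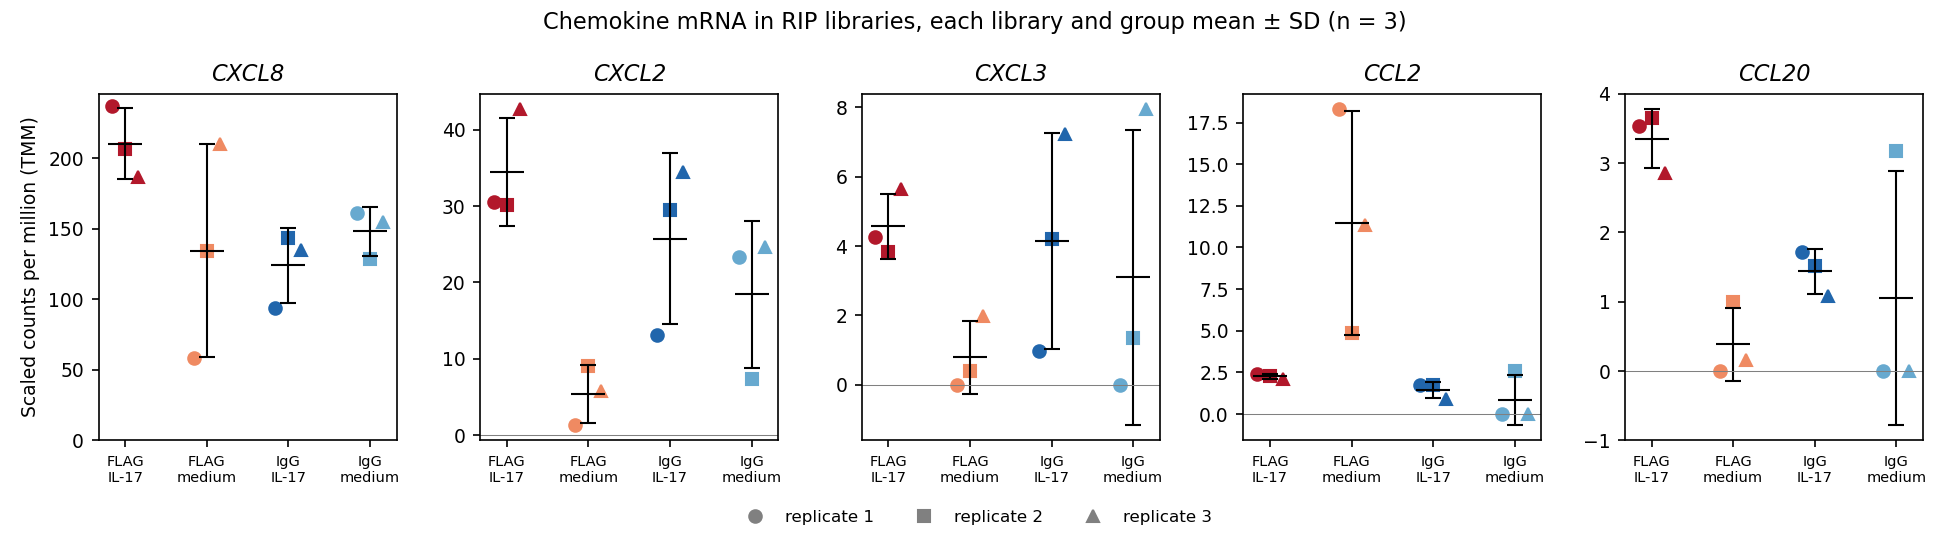
Scaled CPM of the 5 tested chemokines in each library (points, with symbols for replicates) and the mean ± SD of each group of 3 (bars), with 1 panel and 1 linear axis per gene. CXCL2 and CXCL3 are higher in all 3 FLAG IL-17 libraries than in all 3 FLAG medium libraries, and CCL2 is highest in the FLAG medium libraries.

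The enrichment of chemokine mRNA by FLAG-Arid5a was compared first in cells given IL-17. CXCL8 had 237, 207 and 187 scaled CPM in FLAG IL-17 and 93.7, 144 and 135 in IgG IL-17. Every FLAG library was thus above every IgG library, but on CPM of the library total the groups overlapped, at 243, 174 and 115 in FLAG IL-17 and 142, 129 and 94.2 in IgG IL-17. The fitted log2 fold change was 0.76 ± 0.52 (SE, adjusted p = 0.923 by edgeR). CCL20 had 3.53, 3.66 and 2.86 scaled CPM in FLAG IL-17 and 1.72, 1.51 and 1.09 in IgG IL-17. CCL2 had 2.43, 2.26 and 2.12 scaled CPM in FLAG IL-17 and 1.72, 1.73 and 0.905 in IgG IL-17. For both CC chemokines the groups were separate on this scale and overlapped on CPM of the library total. CXCL2 had 30.6, 30.1 and 42.7 scaled CPM in FLAG IL-17 and 13.2, 29.5 and 34.5 in IgG IL-17, with overlap. CXCL3 had 4.25, 3.83 and 5.63 scaled CPM in FLAG IL-17, inside the 0.983 to 7.24 of IgG IL-17.

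None of the 5 was called in this comparison by edgeR (0 of 5 higher and 0 of 5 lower, against 0% of all features in either direction), and 0 had an unadjusted p under 0.05, against 0.566% of all features higher and 2.25% lower. DESeq2 and limma also called 0 of 5. The 3 genes whose libraries did not overlap, all higher in FLAG, compare with 14.6% of all features higher without overlap and 12.3% lower. CCL20, among these 3, passed the filter only with its FLAG IL-17 libraries counted. The fitted log2 fold changes were 1.21 ± 1.81 for CCL20, 0.64 ± 1.35 for CCL2, 0.42 ± 0.65 for CXCL2 and 0.14 ± 1.502 for CXCL3 (SE). Their median over the 5 genes was 0.64, against -0.33 over all tested features. The interval for CXCL8 ran from -0.31 to 1.83 and that for CCL20 from -2.50 to 4.92, so differences of those sizes lay within the error.

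In medium, CXCL2 and CCL2 had the lowest p of the 5 genes for FLAG against IgG, and neither passed the adjusted threshold. CCL2, the monocyte attractant, had 18.3, 4.85 and 11.3 scaled CPM in FLAG medium and 0, 2.60 and 0 in IgG medium. All FLAG medium libraries were above all IgG medium libraries, on each of the scales used (scaled CPM, CPM of the library total and TPM). The underlying counts were 66, 49 and 69 in FLAG medium and 0, 23 and 0 in IgG medium. The log2 fold change of CCL2 was 3.36 ± 1.51 (SE), with an edgeR unadjusted p of 0.0353 and an adjusted p of 0.757. All its IgG medium counts came from replicate 2, and replicates 1 and 3 together had 0 of 4550171 counts.

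CXCL2 had the opposite sign, with 1.39, 9.02 and 5.75 scaled CPM in FLAG medium and 23.3, 7.35 and 24.6 in IgG medium, with FLAG medium replicate 2 above IgG medium replicate 2. Its log2 fold change was -1.70 ± 0.69 (SE), with an edgeR unadjusted p of 0.0214 and an adjusted p of 0.757. CXCL8 had 58.8, 135 and 210 scaled CPM in FLAG medium and 161, 129 and 155 in IgG medium, and the FLAG libraries lay on both sides of the IgG ones. CXCL3 had 0, 0.396 and 1.97 scaled CPM in FLAG medium and 0, 1.358 and 7.95 in IgG medium. CCL20 had 0, 0.991 and 0.164 scaled CPM in FLAG medium and 0, 3.17 and 0 in IgG medium, where 1 library held all 28 counts. Both groups of CXCL3 and of CCL20 thus included libraries with no count.

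By edgeR, 0 of 5 were called higher and 0 of 5 lower in FLAG medium, against 0% of all features in each direction, and DESeq2 called 0 of 4 and limma 0 of 5. At an unadjusted p under 0.05, 1 of 5 was higher, against 4.17% of all features, and 1 of 5 lower, against 2.4%. CCL2 was the 1 gene of the 5 with no overlap, where 5.07% of all features were higher and 1.11% lower without overlap. Without the 4 libraries that stood apart, the log2 fold change was 9.36 for CCL2 and -1.57 for CXCL2. This left IgG medium replicate 3 alone, with 0 counts of CCL2, so no call is taken from it. Its spread was assumed to be that of the other groups. The log2 fold changes of the others were -0.14 ± 0.52 for CXCL8, -2.05 ± 1.60 for CXCL3 and -1.57 ± 1.87 for CCL20 (SE). Without IgG medium replicate 2 the direction for CCL20 turned, to a fitted 4.88 that rests on libraries at 0.

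**Figure D3:**
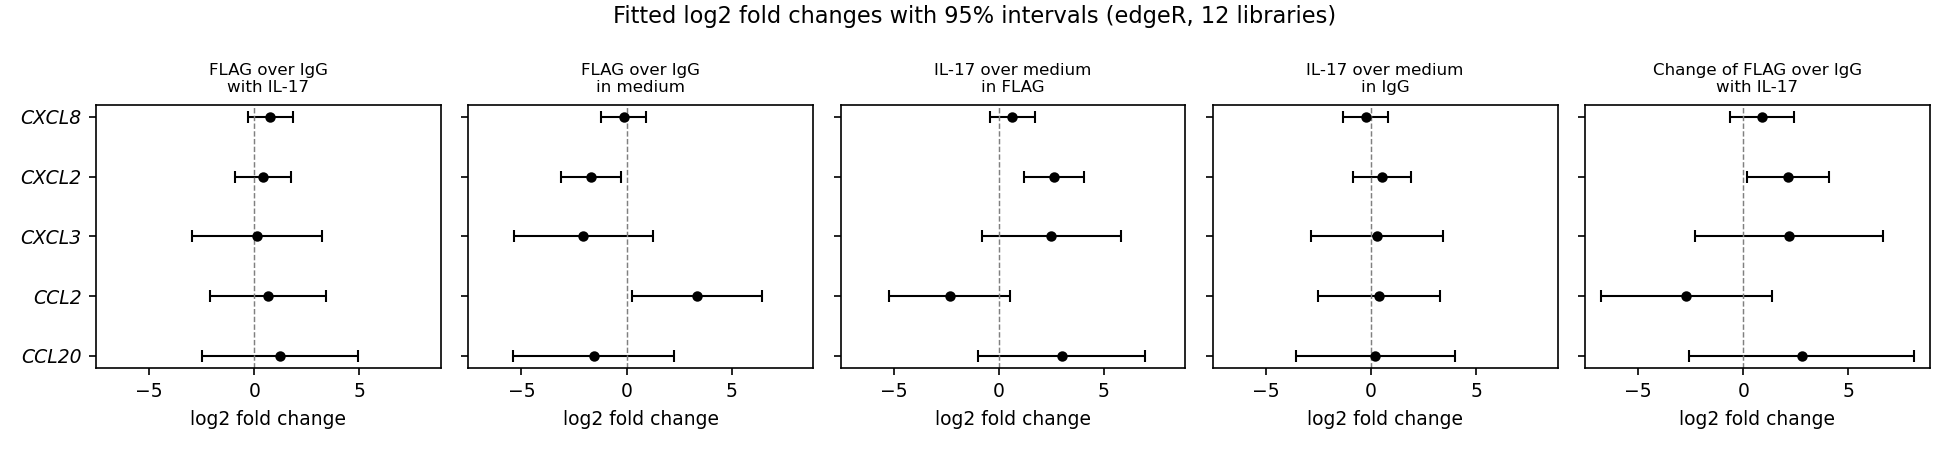
Fitted log2 fold changes (points) with 95% intervals (bars) of the 5 tested chemokines in 5 comparisons, from 1 edgeR fit of 12 libraries. The interval for CXCL2 excludes 0 before adjustment for IL-17 over medium in FLAG, for FLAG over IgG in medium and for the change of enrichment, and that for CCL2 does so for FLAG over IgG in medium.

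IL-17 was set against medium first in the FLAG libraries, where CXCL2, a neutrophil attractant, had the lowest p of the 5 genes. CXCL2 had 30.6, 30.1 and 42.7 scaled CPM in FLAG IL-17, against 1.39, 9.02 and 5.75 in FLAG medium. Means were 34.4 ± 7.12 scaled CPM in FLAG IL-17, against 5.38 ± 3.83 in FLAG medium (SD, n = 3 each). Its log2 fold change was 2.64 ± 0.69 (SE), with an edgeR unadjusted p of 0.000754 and an adjusted p of 0.218, which missed the threshold. DESeq2 called CXCL2 higher with IL-17 (log2 fold change 2.25, adjusted p = 0.00687), among 160 features higher and 869 lower of 19227. Without the 4 libraries that stood apart, the edgeR log2 fold change of CXCL2 was 2.19. In TPM the libraries overlapped, with 5.18, 2.90 and 2.23 in FLAG IL-17, against 0.90, 3.23 and 0.83 in FLAG medium.

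CXCL3 and CCL20 had the same direction in FLAG libraries at far lower counts. CXCL3 had 77, 44 and 61 counts in FLAG IL-17, against 0, 4 and 12 in FLAG medium, for a log2 fold change of 2.49 ± 1.61 (SE, edgeR adjusted p = 0.494). CCL20 had 64, 42 and 31 counts in FLAG IL-17, against 0, 10 and 1 in FLAG medium, for a log2 fold change of 2.99 ± 1.94 (SE, edgeR adjusted p = 0.495). In scaled CPM, every FLAG IL-17 library exceeded every FLAG medium library for both genes, though for CCL20 this is not independent of the filter. In TPM the groups overlapped, for CXCL3 with 0.70, 0.35 and 0.23 in FLAG IL-17, against 0, 0.22 and 0.43 in FLAG medium. CCL20 overlapped too, with 0.84, 0.51 and 0.25 TPM in FLAG IL-17, against 0, 0.90 and 0.04 TPM in FLAG medium. CCL2 ran the opposite way, with 2.43, 2.26 and 2.12 scaled CPM in FLAG IL-17, against 18.3, 4.85 and 11.3 in FLAG medium. The fitted log2 fold change was -2.33 ± 1.40 (SE, adjusted p = 0.477 by edgeR), and the groups did not overlap on any of the 3 scales. CXCL8 had 237, 207 and 187 scaled CPM in FLAG IL-17, against 58.8, 135 and 210 in FLAG medium, overlapping through FLAG medium replicate 3. The fitted log2 fold change was 0.64 ± 0.52 (SE, adjusted p = 0.559 by edgeR).

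By edgeR, 0 of 5 were called higher and 0 of 5 lower with IL-17 in FLAG, against 0.22% and 0.00416% of all features. At an unadjusted p under 0.05, 1 of 5 was higher, against 3.05% of all features, and 0 of 5 lower, against 7.86%. DESeq2 called 1 of 4 and limma 0 of 5. Libraries did not overlap for 3 of 5 in the higher direction, against 17.3% of all features, and for 1 of 5 in the lower direction, against 11%. CCL20, among the 3, passed the filter only with its FLAG IL-17 libraries counted. The median log2 fold change was 2.49 over the 5 genes and -0.29 over all tested features.

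In IgG libraries, no difference between IL-17 and medium passed the test for any of the 5 genes. CXCL2 had 13.2, 29.5 and 34.5 scaled CPM in IgG IL-17 and 23.3, 7.35 and 24.6 in IgG medium, for a log2 fold change of 0.52 ± 0.67 (SE, edgeR adjusted p = 1). CXCL8 had 93.7, 144 and 135 scaled CPM in IgG IL-17 and 161, 129 and 155 in IgG medium, for a log2 fold change of -0.25 ± 0.52 (SE, edgeR adjusted p = 1). The intervals ran from -0.85 to 1.90 for CXCL2 and from -1.32 to 0.82 for CXCL8. CXCL3 had 0.983, 4.22 and 7.24 scaled CPM in IgG IL-17 and 0, 1.358 and 7.95 in IgG medium. CCL2 and CCL20 had counts in all 3 IgG IL-17 libraries, from 10 to 16 and from 12 to 14, and in IgG medium replicate 2 alone, with 23 and 28. The log2 fold changes of CXCL3, CCL2 and CCL20 were 0.30 ± 1.53, 0.39 ± 1.41 and 0.21 ± 1.83 (SE). edgeR called 0 of 5 in either direction, against 0.0125% of all features higher and 0% lower, and DESeq2 called 0 of 4 and limma 0 of 5. At an unadjusted p under 0.05 there were 0 of 5, against 3.79% of all features higher and 1.78% lower. All 5 genes overlapped between IgG IL-17 and IgG medium, where 9.69% of all features were higher and 1.93% lower without overlap.

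Whether the enrichment by FLAG differed between treatments was tested as an interaction. CXCL2 had a log2 change of enrichment with IL-17 of 2.12 ± 0.95 (SE), with an edgeR unadjusted p of 0.0338 and an adjusted p of 0.664. The changes were 2.78 ± 2.60 for CCL20, 2.19 ± 2.18 for CXCL3, 0.90 ± 0.73 for CXCL8 and -2.71 ± 1.98 for CCL2 (SE), with edgeR adjusted p from 0.771 to 0.819. By edgeR, 0 of 5 were called in either direction, against 0% of all features each way, and DESeq2 and limma called 0 of 5. At an unadjusted p under 0.05, 1 of 5 was higher, against 1.07% of all features, and 0 of 5 lower, against 6.28%. The larger IL-17 effect on CXCL2 in FLAG than in IgG was thus not established after adjustment. Averaged over both antibodies, a comparison added after seeing the data, the log2 effect of IL-17 on CXCL2 was 1.58 ± 0.48 (SE), with an edgeR adjusted p of 0.248 and a DESeq2 adjusted p of 0.0248. edgeR called 0 of 5 for this mean, against 0.329% of all features higher and 0.0666% lower, and limma called 0 of 5. DESeq2 called 237 features higher and 486 lower of 17030 for this mean. Without the 4 libraries that stood apart, which left IgG medium replicate 3 alone, the log2 fold change of CXCL2 for this mean was 1.35. At an unadjusted p under 0.05, 1 of 5 was higher, against 5.5% of all features, and 0 of 5 lower, against 4.99%.

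Counts of 1 chemokine relative to another in the same library do not depend on how libraries are scaled. CXCL2 had 12.9, 14.6 and 22.8 counts per 100 counts of CXCL8 in FLAG IL-17, against 2.36, 6.70 and 2.74 in FLAG medium. It had 14.0, 20.5 and 25.5 per 100 in IgG IL-17 and 14.5, 5.71 and 15.9 in IgG medium. The FLAG groups were separate, the IgG groups overlapped through IgG medium replicates 1 and 3, and the 3 FLAG medium libraries were among the 4 lowest of the study together with IgG medium replicate 2. Over both antibodies the ratio averaged 18.4 per 100 with IL-17 and 7.98 in medium (n = 6 each, exact two-sided permutation within antibody p = 0.015, 0.24 after adjustment over 24 tests, smallest possible 0.005). Within FLAG alone, 3 libraries against 3 cannot go below an exact p of 0.1, which CXCL2, CXCL3, CCL2 and CCL20 all reached. These ratios were chosen after seeing the data.

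CCL2 showed the widest range of these ratios. It had 1.02, 1.09 and 1.14 counts per 100 counts of CXCL8 in FLAG IL-17, against 31.1, 3.61 and 5.40 in FLAG medium. For FLAG medium replicate 1 the exact 95% interval was 23.2 to 41.2, which covers counting error only. In IgG IL-17 CCL2 had 1.84, 1.20 and 0.67 per 100, and in IgG medium 0, 2.02 and 0. The FLAG medium ratios were thus above those measured in the other 9 libraries. In IgG medium replicate 1, however, 0 counts beside 76 of CXCL8 allow up to 4.97 per 100 (exact 95% limit), above FLAG medium replicate 2. CCL20 had 1.49, 1.77 and 1.53 per 100 in FLAG IL-17, against 0, 0.736 and 0.0782 in FLAG medium, without overlap of the measured ratios. The 0 in FLAG medium replicate 1 allows up to 1.76 per 100, above FLAG IL-17 replicates 1 and 3. CXCL3 had 1.79, 1.85 and 3.01 per 100 in FLAG IL-17, against 0, 0.294 and 0.939 in FLAG medium. In IgG libraries the CXCL3 ratio ran from 1.05 to 5.36 with IL-17 and from 0 to 5.13 in medium.

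**Figure D4:**
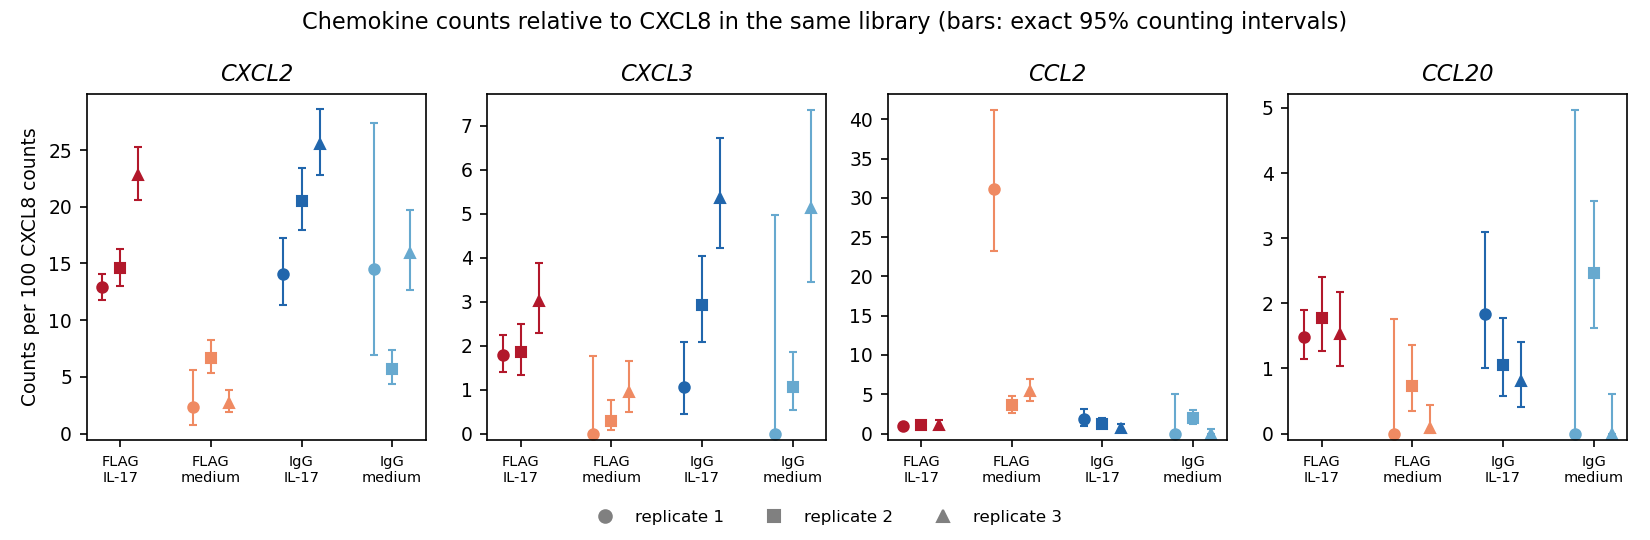
Counts of CXCL2, CXCL3, CCL2 and CCL20 per 100 counts of CXCL8 in the same library (points, with symbols for replicates) with exact 95% counting intervals (bars), on linear axes that differ between panels. In FLAG libraries, CXCL2, CXCL3 and CCL20 are higher with IL-17 than in medium and CCL2 is lower in the measured ratios, and some intervals overlap between the groups.

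The scale in which CXCL8 was expressed changed the sign of its IL-17 difference in FLAG. In TPM, CXCL8 had 30.0, 15.4 and 7.89 in FLAG IL-17, against 21.6, 60.0 and 41.4 in FLAG medium. There limma on log2(TPM + 1) gave a log2 fold change of -1.23 (adjusted p = 0.53) where edgeR on counts gave 0.64 with TMM. On counts edgeR gave 0.16 with library size only, 0.23 with RLE factors and 0.36 with upper-quartile factors. In IgG, CXCL8 had 19.4, 11.3 and 7.66 TPM in IgG IL-17 and 6.16, 84.7 and 52.5 TPM in IgG medium. The TPM of CXCL8 per 100 CPM ran from 6.87 to 13.6 in the 6 IL-17 libraries and from 6.05 to 45.6 in the 6 medium libraries. Short features, those with an apparent effective length under 0.1 of that of CXCL8, took 6.72% to 16.4% of counts with IL-17 and 1.62% to 12.6% in medium. Because TPM divides by length, the same features took 85.5% to 92.1% of TPM with IL-17 and 68.1% to 89.4% in medium. The ratio of CXCL2's apparent length to that of CXCL8 also varied over the 10 libraries with enough counts. It ran from 0.57 to 0.81 with IL-17 and from 0.78 to 1.37 in medium, and its part in the count ratios above was not tested. Leaving the short features out of the count test gave a log2 fold change of 2.66 for CXCL2 in FLAG (edgeR adjusted p = 0.369).

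**Figure D5:**
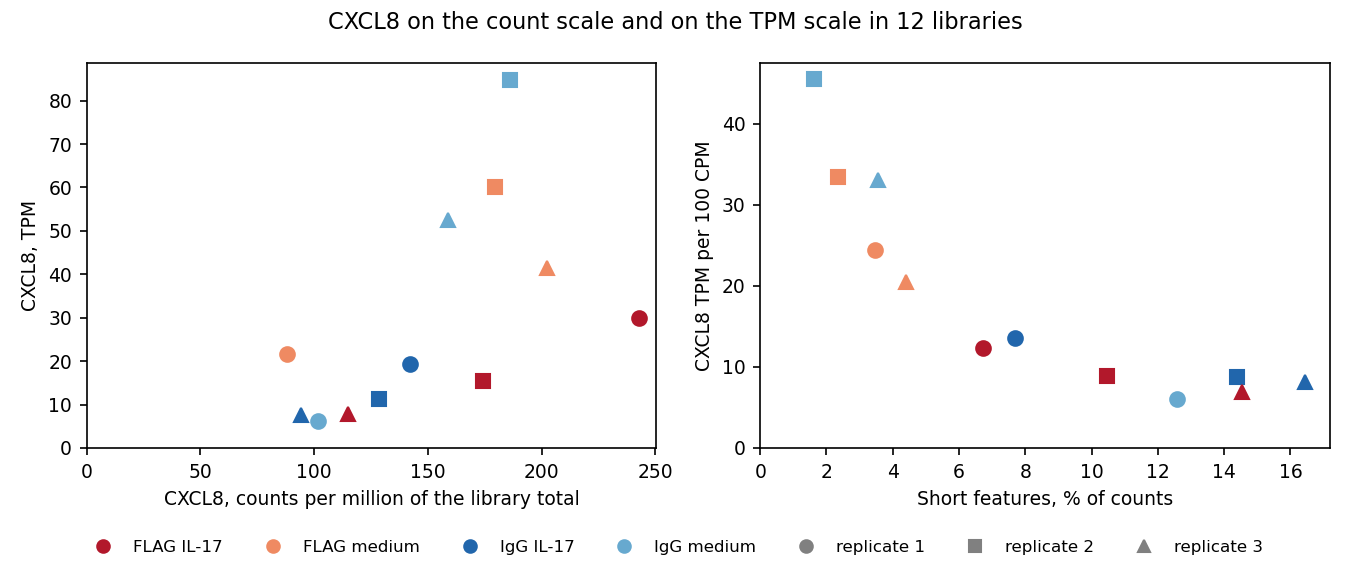
Left, CXCL8 in TPM against CXCL8 in CPM of the library total, 1 point per library. Right, CXCL8 TPM per 100 CPM against the percentage of counts on short features, where the library with 1.62% of counts on short features has 45.6 TPM per 100 CPM and the one with 16.4% has 8.13.

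The features whose pattern over the 12 libraries was most like that of the 5 tested chemokines were sought among 12002 others with at least 5 scaled CPM on average. ENSG00000116489.13 correlated at Pearson r = 0.972 and ENSG00000166741.8 at r = 0.966 with the mean standardised log2 CPM of the 5, over 12 libraries. The median over the 12002 features was 0.468. All points share the libraries' depth and composition, and no table used here names these features.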

How the data were processed

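The 12 libraries were grouped by antibody, treatment and replicate number from the sample titles. The deposited estimated counts hold 60708 features, and a second deposited table, labelled FPKM, was read as TPM, since all columns have the same sum, as TPM does and FPKM does not. The submitters' processing notes name the builds hg38 and GRCh38 and the tools R 4.2.0, DESeq2 1.36.0, RSEM 1.3.1 and STAR 2.7.9. Neither the role of each nor the use of strand in counting is given in the sources used here. Low-input full-length cDNA libraries were made, per the labels' protocols, and both short and longer features received counts.

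Rounded estimated counts were filtered by edgeR 4.0.16 (filterByExpr, at least 10 counts) in R 4.3.3. TMM factors and 1 quasi-likelihood fit of the 4 groups followed. This left 24040 features, with a common dispersion of 0.953. Standard errors are the log2 fold change divided by the square root of the F statistic, so they use the dispersion shared by all libraries. p-values were Benjamini-Hochberg adjusted over all features. Alternatives were DESeq2 1.42.0, limma 3.58.1 on log2 TPM with pseudocounts of 1 or 0.1, other scalings and filters, a replicate block and left-out libraries. Intervals are 95%, exact for counts. The rule for named genes took all 8 chemokines and the 5 features most like them in pattern, of which 2 identifiers are printed because names are lacking. Of the files' identifiers, 0 matched the reference table's Ensembl column, so other IL-17 targets, receptors, regulators and cell markers were not tested. The chemokines and lists were chosen with earlier results of these data known.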

Additional observations from a re-analysis of the deposited data

How the results depend on the processing

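Values here are log2 fold changes unless named otherwise. By edgeR no chemokine was called in any comparison as reported. The filter of 50 counts in 3 libraries left no value for CCL2 and CCL20, and a fit of only the groups compared could not be made for the change of enrichment or the mean IL-17 effect, which use all 4 groups. That fit also left no value, after its own filter, for CXCL3 and CCL20 in FLAG over IgG in medium or for CCL2 and CCL20 with IL-17 in IgG. Of 318 values under alternatives, 281 kept direction and side of the threshold, 31 reversed and 6 passed the threshold. The 281 include DESeq2 values of CCL20 that had no adjusted p and kept direction only. Of 312 values with 1 library left out, 299 kept both and 13 reversed. The causes were not tested, except where libraries were removed. Fits without 3 libraries (the 4 less IgG medium replicate 1), fits without short features, the mean IL-17 effect and the ratios were chosen after seeing the data. CXCL2 for IL-17 in FLAG ran from 0.80 to 2.75 over 13 alternatives. Apart from the fit without the 4 libraries, its adjusted p ran from 0.00687 (DESeq2) to 0.523 (limma on log2(TPM + 0.1)). With 1 library left out, the CXCL2 value ran from 2.19 to 3.16 (edgeR adjusted p 0.058 to 0.753). CCL2 for FLAG over IgG in medium ran from 2.69 to 9.72 with 1 library left out, the highest without IgG medium replicate 2, when both IgG libraries are at 0.

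DESeq2 called 1 gene, CXCL2, for IL-17 in FLAG and 1 for its mean over antibodies. The remaining values that passed came from the fit without the 4 libraries named in the report. It left IgG medium replicate 3 alone and is not read for calls.

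Reversals under limma on log2(TPM + 1) and log2(TPM + 0.1) were, in that order, -0.10 and -0.14 for CXCL2 in FLAG over IgG with IL-17, 0.28 and 0.32 for CXCL8 in FLAG over IgG in medium, and -1.23 and -1.29 for CXCL8 with IL-17 in FLAG. They were -0.44 and -0.53 for CXCL2 and -0.59 and -0.74 for CXCL3 with IL-17 in IgG. With log2(TPM + 1) alone, CCL2 gave -0.10 and CCL20 -0.28 with IL-17 in IgG. CXCL3 in FLAG over IgG with IL-17 turned to -0.036 with RLE factors, -0.048 with upper-quartile factors, -0.0025 with 50 counts in 3 libraries, -0.040 by DESeq2, -0.31 without the 4 libraries and -0.34 without the 3. CXCL8 in FLAG over IgG in medium turned to 0.073 with library size only, 0.060 with only the groups compared, 0.30 without the 4 libraries and 0.15 without the 3. With IL-17 in IgG, CXCL3 turned to -0.019 with library size only and -0.34 without the 4 libraries, and CCL20 to -0.062 with RLE factors, -0.074 with library size only and -0.11 by DESeq2. CCL20 in FLAG over IgG in medium turned to 5.64 without the 4 libraries and 5.48 without the 3, and its change of enrichment to -4.25 and -4.13. These rest on IgG medium libraries at 0, depend on the prior count and are no bounds.

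With 1 library left out, reversing values ranged from -3.65 to 4.88 for CCL20 in FLAG over IgG in medium and from -3.68 to 4.84 for its change. They ranged from -0.54 to 6.63 for CCL20, -0.40 to 6.64 for CCL2 and -0.27 to 1.97 for CXCL3 with IL-17 in IgG. CXCL3 in FLAG over IgG with IL-17 ranged from -0.32 to 0.59, and CXCL8 in FLAG over IgG in medium from -0.48 to 0.23. No chemokine was called in any fit with 1 library left out, where counts ranged from 0 to 0.

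Deviations of same-numbered libraries of different groups correlated at -0.14 to 0.47, with 9 of 18 pairs above 0.1. Differently numbered libraries correlated at -0.48 to 0.49, with 9 of 36 pairs above 0.1. These values do not settle whether the numbers pair samples. The main fit did not pair them, and the replicate block was an alternative. With the replicate block, 0 chemokines were called in every comparison, with CXCL2 for IL-17 in FLAG at 2.75 (edgeR adjusted p = 0.0501).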
